A study of Mus musculus with 12 samples.

Results

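The seed family of miR-15, miR-16 and miR-195 was examined in the blood of mice with and without Tff2. Its 6 members on the array, mmu-miR-15a, mmu-miR-15b, mmu-miR-16, mmu-miR-195, mmu-miR-497 and mmu-miR-322 (written here without the species prefix), were chosen by name because they share the seed of miR-16, out of 710 miRNAs and star sequences with a probe. Total RNA with miRNAs came from pelleted peripheral blood cells of 12 mice, with 1 array per mouse. The 6 Tff2-KO mice (129/SV, Tff2 deficient, generated earlier) and the 6 WT mice (129/SV, bought from a breeder) were 3 males and 3 females of each genotype. No treatment of the mice is given, and their age is not given in the sources used here. Origin and genotype differed together and cannot be told apart. The array carries no probe for Tff2 mRNA, so the knock-out itself was not checked.

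A miRNA guides the silencing complex to target mRNAs, and its seed, the bases 2 to 8 counted from the 5′ end, decides most of the pairing. Members of the miR-15/16 family therefore share many predicted targets. They are known as brakes on cell division, acting on cyclins and cyclin-dependent kinases, and as repressors of the survival factor Bcl2. The miR-15a and miR-16-1 pair lies in a region that is often lost in human chronic lymphocytic leukaemia, and mice that lack the pair develop B cell expansions. In blood, miR-16 is abundant in red cells and is often used as a reference miRNA.

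The mature sequences are shown because they define the family and show how close the probes' targets are. They are those of RefSeq (build GRCm38.p6), matched by name for all 6 members, 5′ to 3′, with the seed in capitals.
miR-16: uAGCAGCAcguaaauauuggcg
miR-195: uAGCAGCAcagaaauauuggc
miR-15a: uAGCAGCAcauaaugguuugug
miR-15b: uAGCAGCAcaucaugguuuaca
miR-497: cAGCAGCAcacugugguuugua
miR-322: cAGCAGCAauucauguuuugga
miR-503, a relative with a different last seed base: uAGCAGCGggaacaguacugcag

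All 6 members had 0 differences in the seed. After the seed they diverged. Aligned from the 5′ end without gaps, miR-16 and miR-195 differed at only 2 of 21 bases, G10A and U11G (base of miR-16, position from the 5′ end, base of miR-195). miR-15a and miR-15b differed at 4 of 22 bases. miR-195 differed from miR-497 at 9 of 21 bases, although their genes are neighbours. Of the mature names in the RefSeq table, 10 had this seed, and the 4 that are not members (miR-195b, miR-6342, miR-6353 and miR-6419) had no probe of that name on the array. Of the 710 array names 545 were found in that table, and the rest were not checked for the seed. miR-503 differed from miR-15a at 1 seed base, A8G.

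The members come from 4 loci. Mir15a and Mir16-1 lie 54 bases apart on chromosome 14, on the minus strand, within the span of the long non-coding RNA gene Dleu2. Mir15b and Mir16-2 lie 66 bases apart on chromosome 3, on the plus strand, within the span of the protein-coding gene Smc4, a condensin subunit. Both loci give the same mature miR-16 (chr14:61631936-61631957 and chr3:69009918-69009939), so its probe cannot tell them apart. Mature miR-15a lies at chr14:61632075-61632096 and mature miR-15b at chr3:69009775-69009796. Mir497 and Mir195a lie 241 bases apart on chromosome 11, on the plus strand, with mature miR-497 at chr11:70234730-70234751 and mature miR-195 at chr11:70235062-70235082. Mir322 lies 200 bases from Mir503 on chromosome X, on the minus strand, within the span of the long non-coding RNA gene C430049B03Rik, with mature miR-322 at chrX:53054306-53054327.

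The authors' raw table gives a background-subtracted intensity per miRNA and array, the median of 7 spots. The mean raw intensity was 543 to 1151 on Tff2-KO arrays against 375 to 999.98 on WT arrays (two-sided exact permutation p = 0.286, n = 6 mice per genotype). The median raw intensity went the other way, at 72 to 128 (median 86) on Tff2-KO arrays against 80 to 120 (median 104) on WT arrays. The ranges overlapped, the mean showed no detected genotype difference, and the median and the shape of the distribution were not tested. Unequal brightness or shape of single arrays would touch every comparison of raw values. The raw values were quantile normalized over the 12 arrays, which gives each array the same set of intensities, and log2 values were compared. The most negative intensity on an array served as a measure of its background. All 6 members exceeded this size on all 12 arrays, as did the red cell markers miR-486, miR-451 and miR-144. The summed normalized intensity of these markers was 31099 to 44325 among Tff2-KO mice against 32531 to 43708 among WT mice. The intensities of different probes are not amounts of RNA, so levels are compared between mice and not between members.

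Of the 6 members, 1 differed between genotypes at an unadjusted p under 0.05 in limma. This was miR-195, which was higher in Tff2-KO mice. Over the whole array the same rule called 9.44% of the 710 miRNAs, of which those higher in Tff2-KO mice made up 3.8% and those lower 5.63% of the array. After Benjamini-Hochberg adjustment over all 710 miRNAs limma called 0 members and 0% of the array, so the miR-195 difference did not pass. Of the members 2 had a log2 fold change above 0 and 4 below 0, with a median of -0.10, beside a median of 0.01 over all 710, of which 50.4% were above 0 and 49.6% below. A share of 1 in 6 comes from few members, and nothing particular to the family is read from it.

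**Figure D1:**
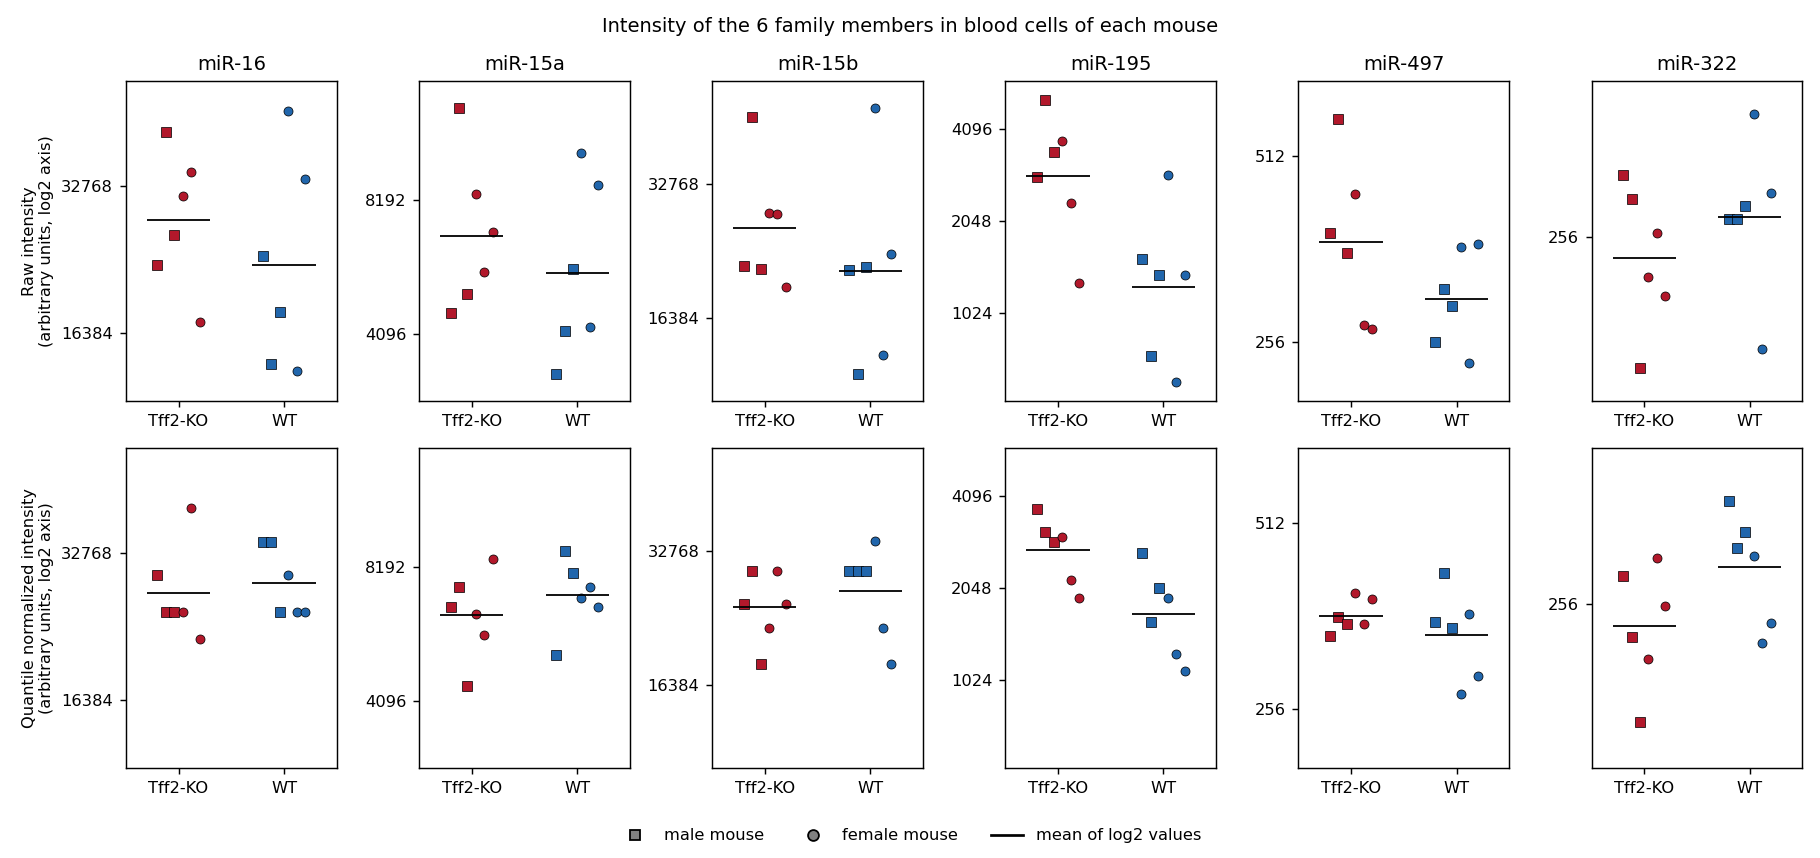
Raw (top) and quantile normalized (bottom) intensity of each member, in arbitrary units on a log2 axis, with 1 point per mouse, squares for males, circles for females and a line at the mean of the log2 values. Most Tff2-KO mice lie high for miR-195 in both rows, while the genotypes overlap widely for miR-16, miR-15a and miR-15b. For miR-497 they overlap widely in the bottom row. In the top row 3 Tff2-KO mice lie above all WT mice for miR-497, as for miR-195.

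For miR-16, the founding member, no difference between the genotypes was detected. Raw intensities were 17312 at the lowest, 28719 at the median and 42274 at the highest in Tff2-KO mice. In WT mice they were 13699, 20889 and 46851. The brightest and the dimmest mouse were both WT, and the genotypes overlapped over nearly the whole range. Quantile normalization, which hands out a shared list of intensities by rank within an array, left its probe with only 5 distinct values over the 12 mice, 21939.9 to 40625 among Tff2-KO mice (median 24873) against 24873 to 34552 among WT mice (median 27226.5). The log2 fold change was -0.07, with a 95% confidence interval from -0.49 to 0.35 (limma, standard error 0.19, unadjusted p = 0.719, adjusted p = 0.912, exact permutation p = 0.751, n = 6 mice per genotype). Differences inside that interval, in either direction, were not excluded with 6 mice per genotype.

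miR-15a, made from the same primary transcript as miR-16-1, had normalized intensities of 4439, 6544 and 8535 (lowest, median and highest) in Tff2-KO mice. In WT mice these were 5203, 7163 and 8869. The lowest mouse was Tff2-KO and the highest WT, with the rest mixed. The log2 fold change was -0.14 (95% confidence interval -0.57 to 0.29, limma adjusted p = 0.828, exact permutation p = 0.424). miR-15b, the partner of miR-16-2, lay between 18282 and 29580.1 among Tff2-KO mice, with a median of 24873, and between 18282 and 34552 among WT mice, with a median of 29580.1. Its lowest value was the same in both genotypes. The log2 fold change was -0.12 (95% confidence interval -0.56 to 0.32, limma adjusted p = 0.843, exact permutation p = 0.535). The 3 members of the Dleu2 and Smc4 loci were thus slightly below 0 after quantile normalization, each by less than its standard error. This sign depends on the scaling, and the raw values gave log2 fold changes of 0.31 for miR-16, 0.28 for miR-15a and 0.33 for miR-15b.

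miR-195 had the clearest difference of the family. In mouse hearts it is known to slow the division of muscle cells after birth. Raw intensities of Tff2-KO mice were 1281 at the lowest, 3143 at the median and 5109 at the highest, and those of WT mice 608, 1363 and 2901. The Tff2-KO median lay above the raw value of every WT mouse, but Tff2-KO replicate 6, at 1281, lay among the WT mice and WT replicate 4, at 2901, among the Tff2-KO mice. After normalization, Tff2-KO mice were at 1899.5, 2957 and 3717 and WT mice at 1101, 1744 and 2664. On this scale 4 Tff2-KO mice lay above all WT mice and 3 WT mice lay below all Tff2-KO mice, so the genotypes still overlapped. Normalized intensities did not overlap for 1.13% of the 710 miRNAs, and miR-195 was not among these.

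The geometric mean of miR-195 was 2734 in Tff2-KO mice against 1680.1 in the WT group, and the log2 fold change was 0.70 (95% confidence interval 0.15 to 1.25, standard error 0.25, n = 6 mice per genotype). In limma the unadjusted p was 0.0168 and the adjusted p 0.403, and the exact permutation p was 0.0173. Among the 710 miRNAs miR-195 had place 29 by p, and place 8 among those higher in Tff2-KO mice. The study lists miR-195 among the miRNAs that it selected from these same mice, so this difference was known beforehand and is no independent evidence. It was above 0 in all 26 alternative fits, from 0.57 to 1.35. With the log2 mean intensity of each array as a covariate, added because the mean raw intensity had a median of 720.3 on Tff2-KO and 492.7 on WT arrays, the log2 fold change was 0.71 (limma unadjusted p = 0.0252, adjusted p = 0.568).

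**Figure D2:**
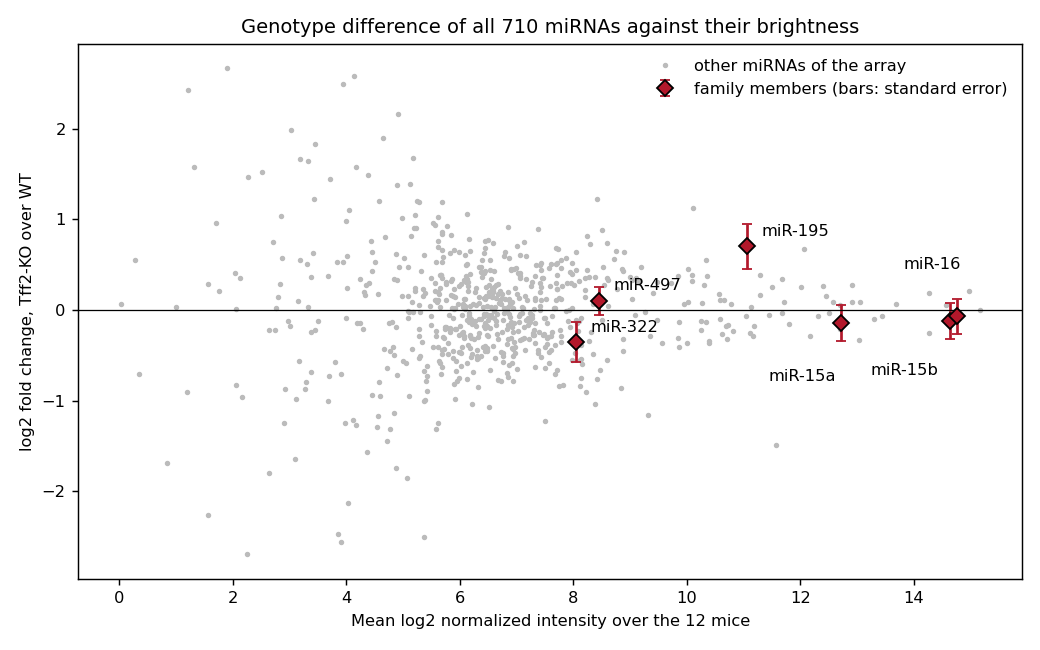
Difference between Tff2-KO and WT mice as log2 fold change (vertical axis) against the mean log2 normalized intensity over the 12 mice (horizontal axis) for all 710 miRNAs in grey, with the 6 members as diamonds with standard errors. miR-195, at 0.70, lies above most miRNAs of like brightness, while miR-16, miR-15b and miR-15a lie close to 0.

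miR-497, whose gene is the neighbour of that of miR-195, did not follow it after quantile normalization. Its normalized intensities were 336, 356 and 393 in Tff2-KO mice and 271, 350 and 424 in WT mice. The Tff2-KO mice lay within the range of the WT mice, and both the lowest and the highest mouse were WT. The log2 fold change was 0.10 (95% confidence interval -0.24 to 0.44, limma unadjusted p = 0.524, adjusted p = 0.839, exact permutation p = 0.342). The raw medians were 370.0 for Tff2-KO and 302 for WT mice, with a log2 difference of 0.30 (exact permutation p = 0.171). On raw values 3 Tff2-KO mice lay above all WT mice, as for miR-195. With all arrays in the fit, the result for miR-497 moved with the scaling. With median scaling miR-497 had a log2 fold change of 0.45 and an unadjusted p of 0.0305 in limma (adjusted p = 0.398).

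miR-322, the member on the X chromosome, had the lowest log2 fold change of the family. In mice its cluster with miR-503 is known from muscle differentiation, where both act on the cell cycle phosphatase Cdc25a. Normalized intensities were 156, 239 and 311 in Tff2-KO mice and 217.5, 318 and 395 in WT mice. Only 2 Tff2-KO mice lay below all WT mice. The geometric means were 233 and 299, and the log2 fold change of -0.36 did not pass (95% confidence interval -0.84 to 0.12, limma unadjusted p = 0.131, adjusted p = 0.591, exact permutation p = 0.102). It was below 0 in 25 of the 26 alternative fits, and at 0.00024 in females only. As for miR-195, some of these fits could not change the estimate.

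Ratios within an array do not change when a whole array is scaled up or down. They therefore ask whether members moved unequally whatever constant factor applies to an array. Each miRNA was divided by miR-16 of the same array, on raw intensities in log2, and the genotypes were compared over the other 709 miRNAs. The median difference over all 709 was -0.39, and 25.4% were above 0. This median depends on the processing, as it was 0.084 with quantile normalized intensities, 0.076 with the values of the authors and -0.14 with array brightness as covariate. At an unadjusted p under 0.05 in limma, 10.3% were called, those higher in Tff2-KO mice being 0.987% and those lower 9.31%, and 0% at an adjusted p under 0.05. Of the 5 members compared, 1 was called, and it was miR-195. The ratios come from the same intensities as the log2 fold changes, so this is no independent evidence.

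The log2 ratio of miR-195 to miR-16 was -3.91 at the lowest, -3.06 at the median and -2.92 at the highest in Tff2-KO mice. In WT mice it was -4.64, -4.13 and -3.73. Of the Tff2-KO mice 4 lay above all WT mice, and 5 WT mice lay below all Tff2-KO mice, so the overlap came down to Tff2-KO replicates 5 and 6 and WT replicate 3. Of the 36 pairs of a Tff2-KO and a WT mouse, the Tff2-KO mouse was higher in 34. The mean ratio was -3.28 ± 0.43 for Tff2-KO and -4.18 ± 0.35 for WT mice (SD, n = 6 mice each), a log2 difference of 0.90 (standard error 0.29, two-sided exact permutation p = 0.00649). In limma over the 709 miRNAs its unadjusted p was 0.00803 (place 8) and its adjusted p 0.469. The sequences of the pair differ at the 2 bases given above, and whether either probe also reads the other miRNA was not tested.

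For 3 other members no genotype difference in the ratio was detected. The ratio of miR-15b to miR-16 was -0.10 ± 0.21 in Tff2-KO and -0.12 ± 0.28 in WT mice (SD, n = 6, log2 difference 0.02, exact permutation p = 0.900). For miR-15a it was -2.04 ± 0.49 and -2.01 ± 0.44 (log2 difference -0.03, exact permutation p = 0.909), and for miR-497 -6.24 ± 0.40 and -6.23 ± 0.55 (log2 difference -0.00, exact permutation p = 0.985). The ratio of miR-322 to miR-16 was lower in Tff2-KO mice, at -6.90 ± 0.52 against -6.34 ± 0.44, with 4 Tff2-KO mice below all WT mice. This did not pass (log2 difference -0.56, limma unadjusted p = 0.105, exact permutation p = 0.0693), and the median difference over all 709 miRNAs was -0.39. The share of all miRNAs with as many Tff2-KO mice below all WT mice was not counted. Against every other member, too, miR-195 was higher in Tff2-KO mice. The sign follows from its raw log2 fold change, the highest of the members, and is no separate evidence. The log2 ratio to miR-497 differed by 0.90 (exact permutation p = 0.0216), that to miR-15b by 0.88 (0.00433), that to miR-15a by 0.93 (0.0411) and that to miR-322 by 1.45 (0.00433). These 5 ratios share miR-195 and are not independent, and those to miR-15a, miR-15b and miR-322 were added after the values had been seen.

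**Figure D3:**
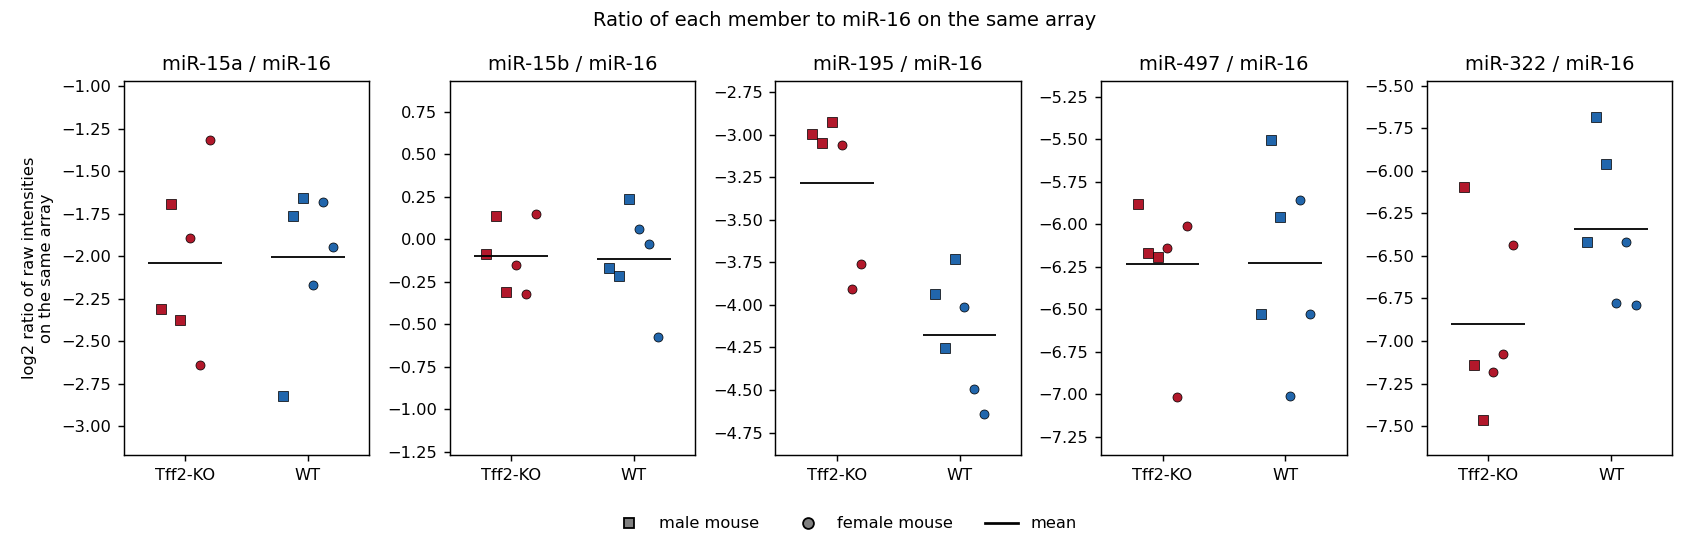
log2 ratio of the raw intensity of each member to that of miR-16 on the same array (vertical axis, each panel spans the same number of log2 units), with 1 point per mouse, squares for males and circles for females, and a line at the mean. The ratio of miR-195 has its mean at -3.28 for Tff2-KO and at -4.18 for WT mice, while those of miR-15a, miR-15b and miR-497 are nearly level.

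Both sexes had the higher miR-195 in Tff2-KO mice. In males the normalized intensities were 2901, 3121 and 3717 in Tff2-KO and 1588, 2043 and 2664 in WT mice, with no overlap. In females they were 1899.5, 2169 and 3013 in Tff2-KO and 1101, 1244 and 1899.5 in WT mice, which met at a single shared value. The log2 fold change was 0.65 in males and 0.75 in females (standard errors 0.28 and 0.34, n = 3 mice per sex and genotype), and with 3 against 3 the smallest two-sided exact permutation p is 0.1. The ratio of miR-195 to miR-16 did not overlap between genotypes within either sex. In males it was -3.05 to -2.92 for Tff2-KO against -4.25 to -3.73 for WT mice, and in females -3.91 to -3.06 against -4.64 to -4.01. The share of all miRNAs that lay apart like this within a sex, by intensity or by ratio, was not counted.

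miR-195 was also higher in males, at an unadjusted p only. Its geometric mean was 2574 in males and 1785 in females, a log2 difference of 0.53 with genotype in the model (standard error 0.21, limma unadjusted p = 0.0286, adjusted p = 0.604). This comparison was added after the values had been seen, and 7.89% of the 710 miRNAs were called by the same rule. With sex as a covariate, the genotype difference of miR-195 had a standard error of 0.21, an unadjusted p of 0.00651 and an adjusted p of 0.308 in limma. The estimate itself cannot move, as each genotype has 3 males and 3 females. The other 5 members had sex differences from -0.07 to 0.13 on the log2 scale.

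miR-322 had unlike differences in the sexes. In males all 3 Tff2-KO mice (156, 223 and 288) were below all 3 WT mice (324, 346 and 395), a log2 fold change of -0.71. How many miRNAs lay apart in this way in males was not counted. In females the genotypes overlapped, at 204, 254 and 311 in Tff2-KO and 217.5, 236 and 313 in WT mice, with a log2 fold change of 0.00. By sex, these genotype differences were not shown to differ (log2 difference -0.71, standard error 0.41, limma unadjusted p = 0.111, adjusted p = 0.549). For the other members the genotype difference in males minus that in females ran from -0.40 to -0.10, with unadjusted p from 0.209 to 0.826. Over the 710 miRNAs, 10% had an unadjusted p under 0.05 for this difference and 0.141% an adjusted one.

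The other products of these loci were read against the array, where 9.44% of the miRNAs had an unadjusted p under 0.05. A count from a list this short is no result about the list. Of 4 star strands on the array (miR-15a*, miR-15b*, miR-16* and miR-322*), 0 had an unadjusted p under 0.05, with 2 above and 2 below 0 and a median log2 fold change of 0.03. miR-15a*, the passenger strand of miR-15a, had raw intensities of 108 to 352 among Tff2-KO mice against 120 to 332 among WT mice, with medians of 138 and 204. Next to miR-322 the X-linked locus has 9 other miRNAs with a probe, of which 1 was lower and 0 higher at an unadjusted p under 0.05 in limma, and 0 passed after adjustment. Their median log2 fold change was -0.20, with 4 above and 5 below 0. Only 2 of the 9, miR-503 and miR-542-5p, exceeded the background measure on all 12 arrays.

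The one that was lower was miR-503, the relative with the changed seed base. Its raw intensities were 212, 224 and 256 in Tff2-KO and 256, 306 and 344 in WT mice (lowest, median and highest). No Tff2-KO mouse exceeded any WT mouse, and the genotypes met at 256 (log2 difference -0.37, exact permutation p = 0.00649). The normalized intensities overlapped, at 176 to 298 among Tff2-KO mice against 204 to 505 among WT mice, with geometric means of 231 and 348 (log2 fold change -0.59, standard error 0.25, limma unadjusted p = 0.0337, adjusted p = 0.507, exact permutation p = 0.0325). In males the genotypes were apart, at 176, 223 and 230 in Tff2-KO and 375, 438 and 505 in WT mice, and in females they overlapped. The share of all miRNAs that lay as far apart, on raw values or in males, was not counted. The genotype difference in males minus that in females had an unadjusted p of 0.0488 and an adjusted p of 0.498 in limma. miR-503 was below 0 under each of the 6 other ways to prepare the arrays, from -0.64 to -0.22, and its unadjusted p in limma was above 0.05 for raw values (0.0609, beside the exact permutation p of 0.00649), after median scaling (0.280) and after 75th percentile scaling (0.0876).

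Markers of other blood cells were looked at beside these values. At an unadjusted p under 0.05, 0 of 3 red cell, 0 of 5 lymphoid and 0 of 4 platelet and endothelial miRNAs differed, and 1 of 4 myeloid ones was higher in Tff2-KO mice, beside 9.44% called over the array. That was miR-142-3p, which exceeded the background measure on only 1 array. In log2 fold change, 5 of 5 lymphoid and 3 of 4 platelet and endothelial markers were above 0. So were 1 of 4 myeloid and 0 of 3 red cell markers, beside 50.4% of the 710 miRNAs. Of the lymphoid markers, miR-155 exceeded the background measure on only 5 arrays. Of the platelet and endothelial markers above 0, miR-126-5p exceeded it on 0 arrays. The summed normalized intensity of the lymphoid markers was 1556 to 4043 among Tff2-KO mice against 918 to 3679 among WT mice. That of the myeloid markers was 2310.3 to 4060.5 against 2338 to 4846, and that of the platelet and endothelial markers 1527 to 2473 against 1509 to 3146. For muscle, 0 of 4 markers differed, with sums of 227 to 1250.2 against 237 to 801. The liver marker miR-122 and the 2 brain markers were not called either, and miR-122 was at 122 to 4793 among Tff2-KO mice against 55.3 to 6114 among WT mice. The part of the cell makeup in the miR-195 difference was not tested, and in whole blood more cells of a type cannot be told apart from more miRNA per cell.

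Between mice, the members did not vary as 1 block. Over the 12 mice, with the genotype means removed, 15 pairs of members were compared and their Pearson correlations ran from -0.32 to 0.78, with a median of 0.25. miR-15b and miR-322 had the highest, at r = 0.78 (permutation p = 0.00305, adjusted over the 15 pairs 0.0457) and Spearman's rho = 0.60 (permutation p = 0.0404, adjusted 0.388). Without the 2 mice farthest from the median of miR-15b, r was 0.62. After normalization miR-15b and miR-16 each had only 5 distinct values over the 12 mice, so their correlations rest on coarse steps. For miR-15b and miR-16, r was 0.51 (permutation p = 0.0926, adjusted 0.463), with rho = 0.52 (permutation p = 0.0829, adjusted 0.388) and r = 0.46 without the 2 farthest mice. The miR-16 probe reads the products of the Smc4 and Dleu2 loci together, so this is not a correlation within the Smc4 locus alone. For miR-195 and its neighbour miR-497, r was -0.01 (permutation p = 0.983, adjusted 0.983), with rho = -0.10 (permutation p = 0.760, adjusted 0.891) and r = -0.22 without the 2 farthest. Only 1 pair passed the adjustment, by r and not by rho. Without normalization between arrays all 15 correlations were positive, from 0.46 to 0.92, and 8 pairs passed by r. These raw values share the brightness of their array.

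The miRNAs most like each member between mice were mostly of other families. Among 354 other miRNAs brighter than the array-wide median, miR-195 was closest to miR-24 (r = 0.90 over 12 mice, genotype means removed), miR-138* (0.73) and miR-106a (0.73). miR-24 itself was level between the genotypes, with geometric means of 2738 and 2836. miR-16 was closest to miR-1928 (0.83), miR-542-5p (0.68) and miR-431 (0.68), and miR-15b to miR-542-5p (0.79), miR-322 (0.78) and miR-770-3p (0.77). The lists of miR-16 and miR-15b rest on the coarse steps of their normalized values. miR-542-5p comes from the X-linked locus of miR-322. miR-15a was closest to miR-1190 (0.80), miR-34c* (0.71) and miR-101b (0.68), miR-497 to miR-883b-3p (0.89), miR-719 (0.86) and miR-669i (0.84), and miR-322 to miR-767 (0.81), miR-19a (0.80) and miR-15b (0.78). These are the highest of many correlations and are given as a description, with no test.

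The log2 fold change of miR-195 stayed above those of the other members in each of 6 other ways to prepare the arrays, while the size of the difference changed. Without normalization between arrays its log2 fold change was 1.20, with median scaling 1.35, with 75th percentile scaling 1.17, with cyclic loess 0.71, with normexp background correction 0.68 and with the values of the authors 0.77. Under the same settings miR-16 was at 0.31, 0.45, 0.28, -0.18, -0.07 and -0.06. The median over all 710 miRNAs lay between -0.12 and 0.06 in these fits, with the lowest value under 75th percentile scaling. In limma the adjusted p of miR-195 was 0.222 or higher under each of these 6 settings.

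**Figure D4:**
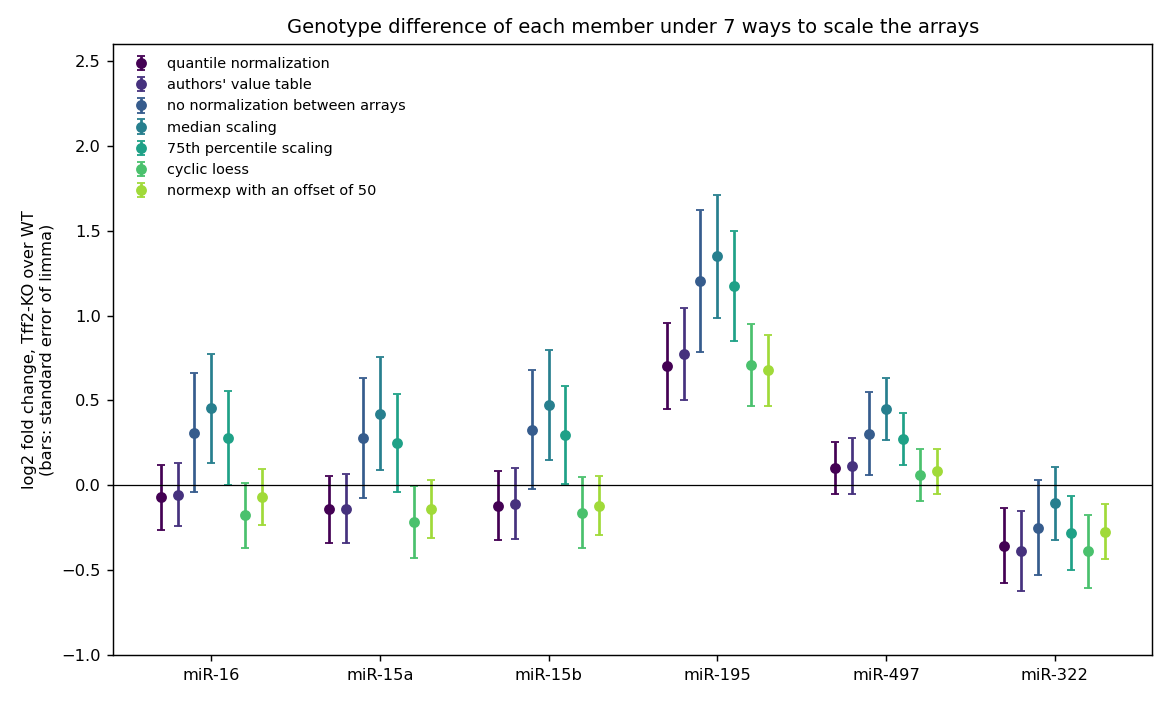
Difference between Tff2-KO and WT mice as log2 fold change for each member (vertical axis, bars show the standard error of limma) under quantile normalization and 6 other ways to prepare the arrays, by colour. miR-195 is above 0 in all 7 and miR-322 below 0 in all 7, while miR-16, miR-15a and miR-15b change sign.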

How the data were processed

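The authors deposited 2 tables of linear intensities. In the raw table they had taken the median signal of each spot with the Geniom Wizard software, subtracted the background and taken the median of 7 spots, with no normalization between arrays. The deposited value table holds intensities after quantile normalization by the authors. The array follows miRBase version 14, whose names were matched to RefSeq.

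Here, quantile normalization of the 12 raw arrays was done in limma 3.58.1 under R 4.3.3, with a floor of 1 set ahead of log2. All 710 miRNAs were fitted with lmFit and eBayes, with Benjamini-Hochberg adjustment and a threshold of 0.05. Two-sided exact permutation tests ran over the 924 groupings of the mice and are not adjusted over the members. Correlations used 100000 permutations. Each mouse was 1 replicate. The number of arrays sets the limit on precision, since there are no counts. Ratios to miR-16 used raw log2 intensities. The tests were tried on simulated data with known changes.

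Members and lists were chosen with earlier results of these data known. Named are the 6 members, miR-503, locus partners with an unadjusted p under 0.05 and the 3 miRNAs most like each member. Alternatives were other scalings, background correction, floor, filter, covariates, a replicate block, a t-test with equal variances (the study names a t-test without its form), each sex alone and each mouse left out. Array brightness as covariate, the ratios of miR-195 to miR-15a, miR-15b and miR-322, the sex difference and other scalings of the correlations and of the genotype by sex fit were added after seeing the data. Python 3.11.15 and matplotlib 3.10.9 made the figures.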

Additional observations from a re-analysis of the deposited data

Results flagged for a closer look

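Of 30 groups of 6 mice (6 members and 9 ratios in each genotype), 2 held a mouse far from the rest. By chance about 1 group in 20 is flagged, which makes 1.5 here. The first was Tff2-KO replicate 5, in which the log2 ratio of miR-497 to miR-16 was -7.01, compared with -6.20 to -5.88 in the rest of its genotype. In Tff2-KO replicate 6 the log2 ratio of miR-195 to miR-497 was 2.26, compared with 2.89 to 3.27. Both were flagged by the gap to the nearest mouse relative to the range of the group.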

How the results depend on the processing

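miR-195 kept its direction in all 26 alternative fits and its ratio in all 24 (4 of them with another member than miR-16 below the line and tested by permutation only). Sex as a covariate and the replicate block cannot move either estimate, nor can the t-test and the brightness filter move the log2 fold change. The sign of those 4 ratios follows from the raw values. In limma the adjusted p was never under 0.05 (lowest 0.165 and 0.212). The sign turned under 3 settings (raw values as they are, scaled by the median, and scaled by the 75th percentile, in this order) for miR-15a (0.28, 0.42, 0.25), miR-15b (0.33, 0.47, 0.30) and miR-16 (0.31, 0.45, 0.28). In males only miR-497 was at -0.10, and in females only miR-15b was at 0.073, miR-16 at 0.092 and miR-322 at 0.00024. The cause was not tested. Ratios to miR-16 near 0 also turned. For miR-15b the ratio was -0.052 in the authors' value table, -0.050 with quantile normalized intensities and -0.035 in males only. For miR-497 it was 0.17 in both of these tables and with array brightness as covariate, and 0.076 in females only.

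Members at an unadjusted p under 0.05 in limma numbered 1, but 2 with median scaling and 0 in males only or females only, where 3 mice per genotype remain. For the ratio to miR-16 they numbered 1, but 0 in females only. Over all miRNAs, 0 passed the adjusted threshold, but 4 with normexp, 6 among brighter miRNAs only, 2 in males only and 3 in females only, and for the ratio 1 in males only. At an unadjusted p, 67 were called over all miRNAs, but 113 in males only and 31 in females only. For the ratio 73 were called, but 48 with quantile normalized intensities, 36 with array brightness as covariate and 29 in females only. The genotype difference in males minus that in females passed at an adjusted p for 1 miRNA, no member. It passed for 0 in the authors' value table, without normalization, with both scalings and with cyclic loess. Of 15 pairs of members 1 correlated at an adjusted p under 0.05, but 0 in the authors' value table and 8 without normalization.

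With each mouse left out in turn, the log2 fold change ran from 0.57 to 0.84 for miR-195, -0.23 to -0.04 for miR-15a, -0.22 to -0.03 for miR-15b, -0.19 to -0.01 for miR-16, 0.04 to 0.17 for miR-497 and -0.46 to -0.24 for miR-322. The log2 ratio to miR-16 ran from 0.80 to 1.02 for miR-195, -0.19 to 0.090 for miR-15a, -0.074 to 0.088 for miR-15b, -0.16 to 0.15 for miR-497 and -0.72 to -0.43 for miR-322, and without Tff2-KO replicate 1 miR-322 had an unadjusted p of 0.0378, so that 2 members were called. Counts at an unadjusted p ran from 42 (without Tff2-KO replicate 4) to 96 over all miRNAs, and for the ratio from 34 (without WT replicate 2) to 128 (without Tff2-KO replicate 1).

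The replicate numbers pair no mice by the labels, and same-numbered mice deviated with correlations from -0.17 to 0.11. With the replicate block miR-195 was at 0.70 (unadjusted p = 0.00562, adjusted p = 0.506 in limma) and its ratio at 0.90 (unadjusted p = 0.0201), and 50 miRNAs were called at an unadjusted p in each fit. The block changed no call among the members.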
